A study of Macaca mulatta with 2 samples.

Results

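The 9 genes described here encode the cation-chloride cotransporters SLC12A2, SLC12A4, SLC12A5 and SLC12A7 and the kinases WNK1, WNK2, WNK3, STK39 and OXSR1. They were taken by symbol from a table of read counts, and all 9 were among its 33618 genes. The data came from the prefrontal cortex of 2 infant rhesus macaques, 1 control animal and 1 animal exposed repeatedly to the inhaled anesthetic sevoflurane. By the labels both animals were 28 days old. They place the exposures of 4 h each at 7, 14 and 28 days, with 2.5% to 3% sevoflurane. The methods section gives later days for the second and the third exposure, and states that the cortex was taken directly after the last one. How the control animal was handled on that day is not given in the sources used here. The design text names 3 animals in each group, of which 1 per group was analysed here, so there are no replicates. By the methods section the 3 controls were female, and the exposed group held 2 females and 1 male. Every difference below is between 2 libraries, each from 1 animal, and its interval covers counting error only.

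Cation-chloride cotransporters move chloride across the cell membrane together with potassium or sodium. SLC12A2 (NKCC1) carries chloride into the cell and the KCC family, to which SLC12A4 (KCC1), SLC12A5 (KCC2) and SLC12A7 (KCC4) belong, carries it out. In neurons the balance of NKCC1 and KCC2 sets the chloride gradient, and so whether opening a GABA-A receptor, a target of sevoflurane, depolarizes or hyperpolarizes the cell. KCC2 increases during brain maturation, when GABA turns from a depolarizing to an inhibitory transmitter. The WNK kinases respond to chloride and cell volume and activate STK39 (SPAK) and OXSR1 (OSR1), which phosphorylate the cotransporters, activating NKCC1 and inhibiting the KCCs. This control acts on protein phosphorylation, which counts of RNA do not measure.

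Reads assigned to genes numbered 16960880 in control cortex and 9839105 after sevoflurane, a ratio of 1.72. Levels are given as CPM, which sets the reads on a gene relative to library size, here scaled by the TMM method. They were computed for the whole table, and the 18050 genes that reached 1 CPM in 1 library or both are called tested. The 9 genes were all among them. The 2 libraries also differed in reads on 7 Y-linked genes, with 3 in control cortex against 4308 after sevoflurane. By these reads the control animal was female and the exposed animal male, so sex and exposure cannot be told apart.

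All 9 genes were expressed in both libraries, and none differed by 2-fold. SLC12A5, WNK1, WNK2 and OXSR1 were higher in the sevoflurane library and SLC12A4, WNK3 and STK39 were lower, by 0.40 or less on the log2 scale. SLC12A2 and SLC12A7 had intervals that included equal expression. Scaling to the summed reads of 8 neuron markers, a reference added after seeing the data, raised all ratios. SLC12A4, WNK3 and STK39 were then no longer lower (-0.09 to 0.01) and SLC12A2 was higher (0.51). The sum weights markers by their reads, with 58204 of 144985 on MAP2 in control cortex, and 1 marker, RBFOX3, was itself higher (0.83). Under the 2-fold rule, a log2 ratio of at least 1 in size with a 95% interval excluding equal expression, 0 of the 9 genes were higher and 0 lower, where 7.56% of all tested genes were higher and 5.47% lower. By the interval alone, 4 of the 9 were higher and 3 lower. Of all tested genes 28.4% were higher and 28.1% lower by that criterion, and among the 11114 genes with at least 242 reads, the number on SLC12A7, the least covered of the 9, these shares were 29.8% and 35.2%. The median log2 ratio was 0.11 over the 9 genes and -0.0048 over all tested genes.

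**Figure D1:**
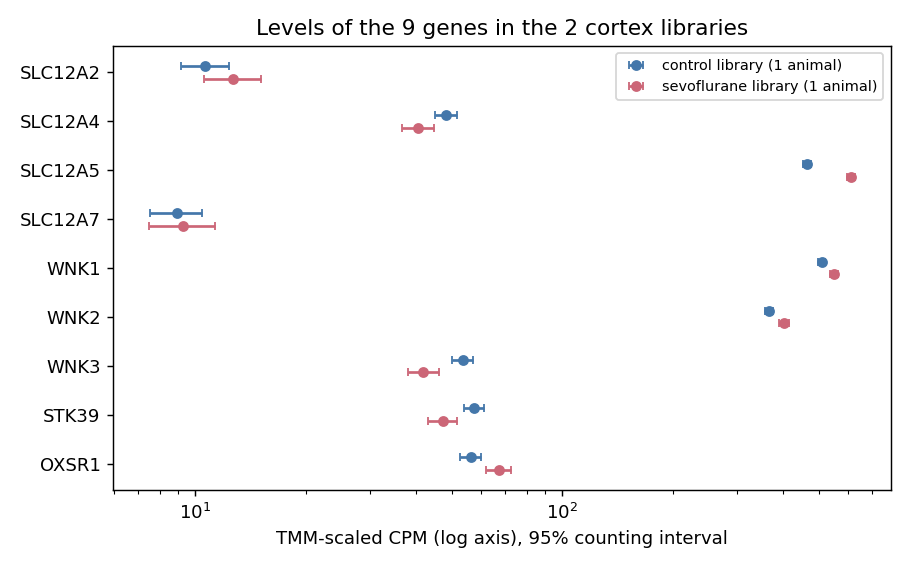
Levels of the 9 genes in TMM-scaled CPM on a log axis, with 95% counting intervals, in the control (blue) and the sevoflurane (red) library, 1 animal each. SLC12A5 moved from 464 to 612 CPM, and the intervals of SLC12A2 and SLC12A7 overlap between the libraries.

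SLC12A2, the sodium-potassium-chloride importer NKCC1, had 179 reads in control cortex and 126 after sevoflurane, or 10.7 and 12.7 CPM. The log2 ratio of 0.25 had an interval of -0.09 to 0.59, a change of between -5.93% and 50.4%, so no difference was detectable at this depth under TMM scaling. Scaled to GAPDH reads, a reference added after seeing the data, it was higher after sevoflurane (0.40, interval 0.07 to 0.74), and so it was when scaled to the summed reads of neuron markers (0.51, interval 0.17 to 0.85). In brain SLC12A2 is also expressed outside neurons, in glia and in the choroid plexus. In the RefSeq table of the macaque assembly MMU8v2.0 its gene spans the pseudogene LOC704792, which had 86 and 48 reads, and how reads were divided between them is not given in the sources used here.

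SLC12A5 encodes KCC2, the exporter of mature neurons. It had 7802 reads in control cortex and 6082 after sevoflurane, which is 464 CPM (95% interval 454 to 475) against 612 CPM (597 to 628). The 2 intervals did not overlap, and the level in the sevoflurane library was 1.32 times that in the control. The log2 ratio of 0.40, interval 0.35 to 0.45, was the highest of the 9 genes and higher than that of 76.4% of all tested genes. In the RefSeq table SLC12A5 overlaps CD40, which had 14 and 21 reads.

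The other exporters were covered by fewer reads. SLC12A4, the broadly expressed KCC1, had 811 reads in control cortex and 402 after sevoflurane, or 48.3 and 40.5 CPM, and a log2 ratio of -0.25 (interval -0.43 to -0.08), which turned to 0.01 when scaled to the summed reads of neuron markers. SLC12A7, KCC4, had 150 and 92 reads, or 8.93 and 9.26 CPM, with an interval of -0.34 to 0.44. SLC12A5 therefore took a larger part of the exporter reads in the sevoflurane library. It made up 89.0% (exact interval 88.4 to 89.7) of the reads on SLC12A4, SLC12A5 and SLC12A7 in control cortex and 92.5% (91.8 to 93.1) after sevoflurane. The part of SLC12A4 was 9.25% (8.66 to 9.88) and 6.11% (5.55 to 6.72), and that of SLC12A7 was 1.71% and 1.40%, with overlapping intervals. These are shares of reads and are not corrected for transcript length, so they do not rank the 3 genes by transcript number.

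The balance of KCC2 to NKCC1 was taken as the ratio of SLC12A5 to SLC12A2 reads within a library, which needs no scaling between libraries. It was 43.6 in the control (exact 95% interval 37.6 to 50.8) and 48.3 in the sevoflurane library (40.5 to 58.0). The 2 intervals overlapped widely. The ratio in the sevoflurane library was 1.11 times that in the control, with an exact conditional interval of 0.875 to 1.41, so a shift of the pair toward either gene was not detectable at this depth. The precision was set by the 179 and 126 reads on SLC12A2. With the reads of SLC12A4, SLC12A5 and SLC12A7 summed as exporters the ratio to SLC12A2 was 49.0 and 52.2, a change of 1.07 times (0.842 to 1.35). Since reads also depend on transcript length, 43.6 and 48.3 are not the numbers of SLC12A5 transcripts for each SLC12A2 transcript. Their comparison between libraries is free of length only if each gene's transcript lengths were the same in both, which was not measured.

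WNK1 and WNK2, which start the kinase cascade, had similar ratios. WNK1 had 8548 reads in control cortex and 5460 after sevoflurane, or 509 and 550 CPM, with a log2 ratio of 0.11 (0.06 to 0.16). WNK2, a WNK kinase prominent in brain, had 6146 and 3991 reads, or 366 and 402 CPM, and a log2 ratio of 0.14 (0.08 to 0.19). Reads on WNK1 were 1.39 times those on WNK2 in the control and 1.37 times in the sevoflurane library, and the ratio of these values, 0.984, had an interval of 0.933 to 1.04. WNK1 shares part of its span with RAD52 in the same RefSeq table, which had 290 and 222 reads. WNK2, WNK3 and STK39 overlap genes there for which no counts were given.

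WNK3 went the other way. It had 900 reads in control cortex and 416 after sevoflurane, or 53.6 and 41.9 CPM, and its log2 ratio of -0.35 (-0.53 to -0.19) was the lowest of the 9 genes. Relative to WNK1, its reads in the sevoflurane library were 0.724 times the control value (0.640 to 0.818). WNK3 made up 5.77% (5.41 to 6.15) of the reads on WNK1, WNK2 and WNK3 in control cortex and 4.22% (3.83 to 4.63) after sevoflurane. WNK3 lies on the X chromosome, and the libraries differed in Y-linked reads as given above. The 562 tested genes that the RefSeq table places on X had a median log2 ratio of -0.09, and 28.8% of them had a lower ratio than WNK3. Over all tested genes the median was -0.0048, and 24.1% had a lower ratio than WNK3. The part of sex in the WNK3 ratio was not tested.

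STK39 and OXSR1, which act directly on the cotransporters, also differed from each other. STK39, SPAK, had 966 reads in control cortex and 469 after sevoflurane, or 57.5 and 47.2 CPM, with a log2 ratio of -0.28 (-0.45 to -0.12). OXSR1, its close relative OSR1, had 946 and 666 reads, or 56.3 and 67.1 CPM, with a log2 ratio of 0.25 (0.11 to 0.40). The reads of the pair were nearly level in the control, at 1.02 STK39 reads for each OXSR1 read (0.933 to 1.12). In the sevoflurane library the value was 0.704 (0.624 to 0.794). The ratio of these balances was 0.690, with an interval of 0.593 to 0.802 that excluded equal balance.

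**Figure D2:**
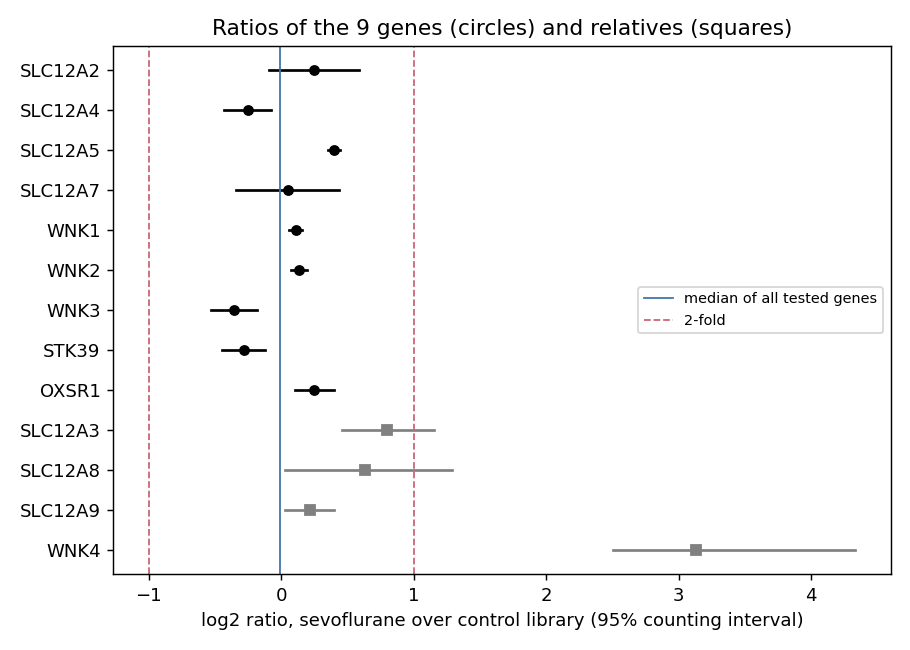
Log2 ratios of the sevoflurane over the control library with 95% counting intervals for the 9 genes (circles) and for SLC12A3, SLC12A8, SLC12A9 and WNK4 (squares). The blue line is the median of all tested genes and the dashed lines mark 2-fold. The 9 genes lie between -0.35 and 0.40, and WNK4 is at 3.13.

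Ordered by the ratio of the sevoflurane to the control level, the genes ran from SLC12A5 through OXSR1, SLC12A2, WNK2, WNK1, SLC12A7, SLC12A4 and STK39 to WNK3. The order was set by these same ratios, so neighbours lie close and the ends far apart by construction. None of the 8 pairs of neighbours differed beyond counting error. The closest to doing so were SLC12A5 and OXSR1, whose ratios differed by 1.11 times (0.996 to 1.23). Over all 36 pairs, which were not adjusted for their number, 17 had an interval that excluded an equal ratio. The share among pairs of other genes was not computed. SLC12A5 was in 5 of these, against SLC12A4, WNK1, WNK2, WNK3 and STK39. The pair at the 2 ends of the order was SLC12A5 and WNK3. SLC12A5 reads for each WNK3 read were 8.67 in control cortex and 14.6 after sevoflurane, 1.69 times as many (1.49 to 1.91).

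KCC2 is a neuronal protein, so its reads were set beside those of 8 neuron markers, a comparison chosen after the values were seen. In bulk tissue fewer cells of a type and less RNA per cell cannot be told apart. The markers RBFOX3, SNAP25, SYT1, NEFL, NEFM, MAP2, STMN2 and SLC17A7 together had 8628 CPM in control cortex and 7204 after sevoflurane, and none of the 8 was at 0 reads. Their median log2 ratio was -0.25, with 6 lower by the interval and RBFOX3 higher (0.83). Of all tested genes 28.1% were lower and 28.4% higher by the interval. Among the genes with at least 242 reads these shares were 35.2% and 29.8%. SLC12A5 had 0.0538 reads for each summed marker read in control cortex and 0.0850 after sevoflurane, 1.58 times as many (1.53 to 1.64). Against 7 of the markers taken one at a time, SLC12A5 was 1.30 (SNAP25) to 1.95 (NEFL) times as high in the sevoflurane library relative to the control. Against RBFOX3 the direction turned, with a value of 0.740 (0.693 to 0.789). With the summed marker reads in place of TMM as the scale, the log2 ratios of the 3 lower genes came to 0.01 for SLC12A4, -0.02 for STK39 and -0.09 for WNK3, each with an interval including equal expression, while SLC12A5 was at 0.66, and OXSR1 and SLC12A2 were both at 0.51. The 3 interneuron genes GAD1, GAD2 and SLC32A1 had a median log2 ratio of -0.30.

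**Figure D3:**
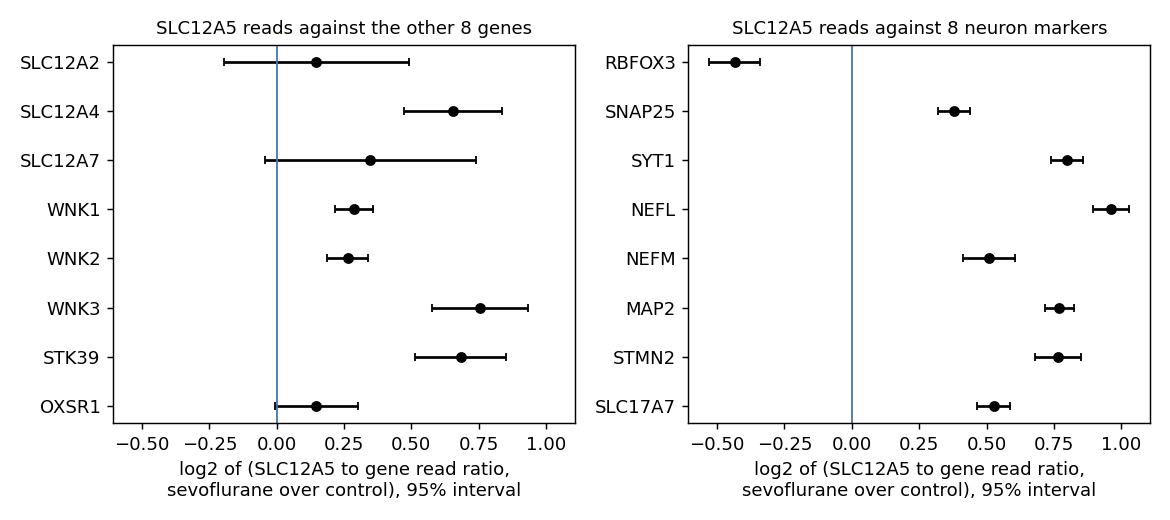
Log2 of the SLC12A5 to gene read ratio in the sevoflurane library over that in the control, with exact 95% intervals, for the other 8 genes (left) and for 8 neuron markers (right). The intervals for SLC12A2, SLC12A7 and OXSR1 include 0, and RBFOX3 is the only neuron marker with a value below 0.

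All 10 oligodendrocyte markers were lower by the interval, 9 of them under the 2-fold rule, beside 28.1% and 5.47% of all tested genes. Their summed level was 4312 CPM in control cortex and 2084 after sevoflurane (median log2 ratio -1.35). The 8 astrocyte markers went from 7748 to 5690 CPM (median -0.48, with 7 lower and 1 higher by the interval). The 6 precursor markers of the oligodendrocyte lineage went from 460 to 350 CPM (median -0.35). The 8 microglia markers had 229 and 246 CPM (median 0.25) and the 5 endothelial markers 150 and 153 CPM (median 0.13). No marker of these lists was at 0 reads in either library. SLC12A2 and SLC12A4, which glia also express, had log2 ratios of 0.25 and -0.25 beside these, and the part of cell type makeup in the ratios of the 9 genes was not tested.

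Of the other SLC12 genes, 4 were examined, and all had higher point estimates in the sevoflurane library. SLC12A1, the sodium-potassium-chloride importer of the kidney, had 8 and 6 reads and was below the filter. The 3 tested genes were all higher by the interval and 0 by the 2-fold rule, with a median log2 ratio of 0.63. Of all tested genes 28.4% were higher by the interval and 7.56% under the 2-fold rule. With the interval widened to an error level of 0.001, SLC12A8 and SLC12A9 included equal expression. SLC12A3, the thiazide-sensitive sodium-chloride importer known from the kidney, had 138 and 143 reads and a log2 ratio of 0.80 (0.46 to 1.16). SLC12A3 overlaps HERPUD1 in the RefSeq table, which had 741 and 546 reads. SLC12A9 was at 0.22 (0.03 to 0.40) and SLC12A8, with 46 and 43 reads, at 0.63 (0.03 to 1.29). SLC12A9 overlaps EPHB4, with 156 and 82 reads, and TRIP6, with 131 and 135 reads.

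Of the 17 listed partners of the WNK pathway, 16 were tested, SGK3 was not analysed here, and the rest divided into 3 higher, 9 lower and 4 with intervals including equal expression (median log2 ratio -0.19). Under the 2-fold rule 2 were higher and 0 lower. Of all tested genes 28.4% were higher and 28.1% lower by the interval, and 7.56% and 5.47% under the 2-fold rule. WNK4, the WNK kinase best known from the kidney, had 13 reads in control cortex and 79 after sevoflurane, or 0.774 and 7.96 CPM. Its log2 ratio was 3.13 (2.51 to 4.33). WNK4 reached 1 CPM only in the sevoflurane library, so it was among the tested genes only through the library in which it was high. SGK2, a kinase related to the aldosterone-induced SGK1, had 175 and 243 reads and a log2 ratio of 1.22 (0.95 to 1.52). The lowest was CAB39L (-0.63, interval -0.77 to -0.49), a scaffold of the MO25 family that activates SPAK and OSR1. Its relative CAB39, chosen after its value was seen, was at 0.11 (0.02 to 0.20). Genes named in the next 3 sentences were chosen after their values were seen. The adaptor KLHL3 (-0.46) and the ubiquitin ligase scaffold CUL3 (-0.15), which together direct WNK kinases to degradation, were both lower by the interval. NEDD4L, another ubiquitin ligase, was at -0.35. The 3 catalytic subunits of protein phosphatase 1, an enzyme that dephosphorylates the cotransporters, were lower as well, PPP1CA at -0.55, PPP1CB at -0.40 and PPP1CC at -0.23. These partner ratios rest on TMM scaling, and scaling to GAPDH or neuron marker reads was applied only to the 9 genes.

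WNK4 stood apart from WNK1, WNK2 and WNK3, and choroid plexus markers were read beside it. TTR, the defining transcript of choroid plexus epithelium, had 2 reads in control cortex and 31 after sevoflurane, and the interval of its log2 ratio began at 2.74. Like WNK4, it reached 1 CPM only in the sevoflurane library. The other markers of the list were named after their values were seen. FOLR1 had 0 and 3 reads, while CLIC6 was lower, with 126 and 20 reads (log2 ratio -1.82), and KL and AQP1 had intervals including equal expression. The 5 markers together had 20.4 CPM in control cortex and 17.1 after sevoflurane, and FOLR1 in the control was the only value at 0. The part of choroid plexus tissue in the WNK4 value was not tested.

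All 13 listed partners and regulators of KCC2 were tested. By the interval 7 were higher and 6 lower, and the median log2 ratio was 0.18. Under the 2-fold rule 0 were higher and 2 lower. The shares of all tested genes were 28.4% higher and 28.1% lower by the interval, and 7.56% and 5.47% under the 2-fold rule. The neurotrophin gene BDNF, whose product acts on KCC2 expression, had 732 reads in control cortex and 89 after sevoflurane, or 43.6 and 8.96 CPM (log2 ratio -2.26, interval -2.62 to -1.96). EGR4, an activity-induced transcription factor known to act on the KCC2 promoter, had 415 and 58 reads, or 24.7 and 5.84 CPM (log2 ratio -2.05, interval -2.50 to -1.68). SLC12A5 itself was higher in the library in which both were lower. NTRK2, the BDNF receptor, chosen after its value was seen, was at -0.04 (-0.07 to -0.01). CKB, the brain creatine kinase that binds KCC2, was the highest of the list, with 2393 and 2650 reads and a log2 ratio of 0.91 (0.83 to 0.99). A further pair of regulators was named after their values were seen, the transcriptional activator USF2 at 0.75 (0.63 to 0.88) and the auxiliary protein NETO2 at -0.60 (-0.68 to -0.51).

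Among 24 genes for chloride, bicarbonate and sodium-potassium transport outside the SLC12 family, 22 were tested, with a median log2 ratio of 0.01. By the interval 9 were higher, 8 lower and 5 included equal expression, beside 28.4% higher and 28.1% lower of all tested genes. CA7, the neuronal carbonic anhydrase that supplies bicarbonate for current through GABA-A receptors, was the highest. It had 50 reads in control cortex and 113 after sevoflurane, or 2.98 and 11.4 CPM (log2 ratio 1.88, interval 1.44 to 2.45). ANO2, a calcium-activated chloride channel, was the lowest, with 110 and 20 reads, or 6.55 and 2.01 CPM (log2 ratio -1.63). These were the only 2 of the list under the 2-fold rule, beside 7.56% higher and 5.47% lower of all tested genes. The chloride channel gene CLCN2, chosen after its value was seen, came next at 0.96 (0.68 to 1.26).

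**Figure D4:**
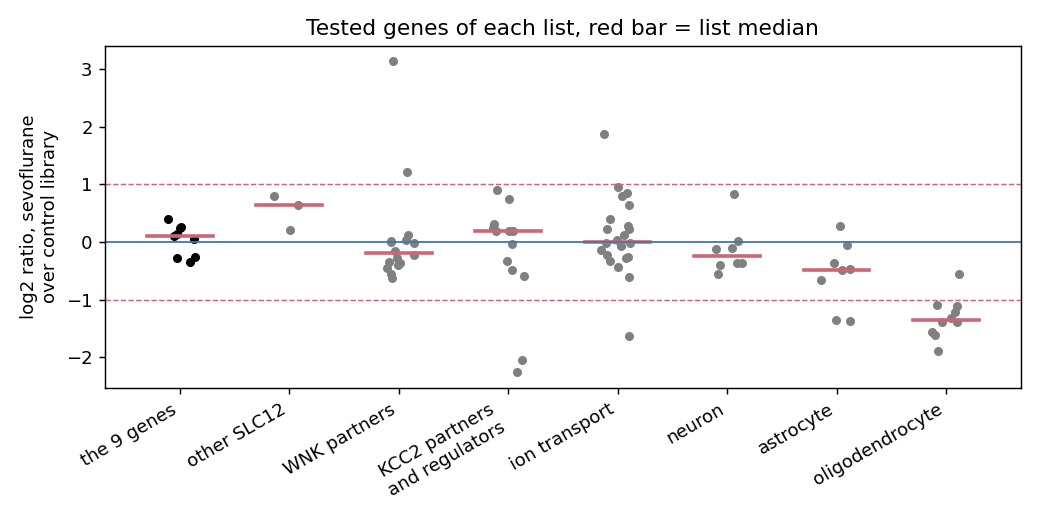
Log2 ratios of the sevoflurane over the control library for the tested genes of each list (points) with the list median (red bar). The blue line is the median of all tested genes and the dashed lines mark 2-fold. The 9 genes stay within 2-fold, WNK4 and BDNF lie farthest out among the pathway lists, and 9 of 10 oligodendrocyte markers are below the lower dashed line.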

How the data were processed

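Total RNA of prefrontal cortex was sequenced, 1 library per group. The authors deposited raw read counts per gene, which were not normalized. The submitters' processing notes name HISAT2 2.0.4. The counting tool, genome build and annotation are not given in the sources used here, so no coordinates or sequences are printed. Samples were grouped by their titles.

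TMM factors (edgeR 4.0.16, R 4.3.3) came to 0.991 and 1.01 for the control and sevoflurane library. Log2 ratios used a prior count of 2. Intervals of 95% rest on the sevoflurane share of a gene's reads (exact Clopper-Pearson), exact Poisson limits for CPM, and exact conditional limits of the odds ratio for balances (scipy 1.17.1, Python 3.11.15, numpy 2.4.6, pandas 2.3.3, matplotlib 3.10.9). A floor of 3 reads equals 0.179 CPM at the control depth and 0.302 CPM at the sevoflurane depth. A test needs replicates, so there are no p-values. Reads without molecular identifiers are not independent molecules, and intervals cover counting error only. The procedure was tested on simulated data with counting error as the only noise, so differences between animals were not examined by it.

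Members and lists were chosen with earlier results of these data known. Named genes are all 9 members, the SLC12 and WNK genes of the lists (except 1 item left unreported), every listed pathway gene past the 2-fold rule, the largest and smallest ratio of each pathway list, and TTR. Other pathway and choroid plexus genes are marked as chosen after their values were seen. Neuron and interneuron markers, and genes that overlap a named gene, are named outside these rules. With 2 libraries no likeness of pattern can be measured. Gene symbols were matched to RefSeq names (83.5% of tested genes to 1 chromosome).

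Alternatives replaced TMM by library totals, upper quartile or size factors of DESeq2 1.42.0, the prior count by 0.5, and the filter by 5 CPM or 1 read. Others thinned the control library to the sevoflurane depth, lowered the threshold to 1.5-fold, or widened the interval to an error level of 0.001. GAPDH reads and summed neuron marker reads were added after seeing the data.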

Additional observations from a re-analysis of the deposited data

How the results depend on the processing

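Under the alternatives other than the added references, none of the 9 log2 ratios changed sign or left its counting interval, and the largest shift was 0.19 (SLC12A7, control library sampled down). The filters and the wider interval cannot alter a gene's ratio, so only the scalings, the prior count and the thinned library could move it. Other scalings moved all log2 ratios by at most 0.027. The SLC12A5 to SLC12A2 balance changed between the libraries by 1.03 to 1.11 times, and its interval included 1 each time, which for the wider interval had to hold. Members under the 2-fold rule stayed at 0 in each direction, also at 1.5-fold, and by the interval 4 were higher each time and 2 to 3 lower, SLC12A4 being lost at an error level of 0.001, as were SLC12A8 and SLC12A9 among the relatives. Counts over all tested genes moved with their construction. A filter of 5 CPM gave 570 higher and 501 lower, a 1.5-fold threshold 2604 and 2141, and by the interval alone an error level of 0.001 gave 3242 and 3327.

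References added after seeing the data moved the ratios more. With GAPDH reads SLC12A5 was at 0.55, WNK1 at 0.27, WNK2 at 0.29 and OXSR1 at 0.40. SLC12A2 became higher (0.40, interval 0.07 to 0.74), WNK3 was still lower (-0.20), and SLC12A4 (-0.10, -0.28 to 0.07) and STK39 (-0.13, -0.29 to 0.03) came to include equal expression. With summed neuron marker reads SLC12A5 was at 0.66, OXSR1 at 0.51 and SLC12A2 at 0.51 (0.17 to 0.85), while SLC12A4 (0.01), STK39 (-0.02) and WNK3 (-0.09) came within counting error of equal expression.

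No paired analysis was possible because the 2 groups hold a lone library each, and leaving a library out ends the comparison. Depth limits SLC12A2 and SLC12A7 most, at 126 and 92 reads in the sevoflurane library.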
